A study of Arabidopsis thaliana with 27 samples.

Results

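Nuclear genes for the photosynthetic apparatus were followed in dormant (D) seeds of Arabidopsis thaliana. The 48 genes were listed by name, as the genes of the light-harvesting antennae (LHCB and LHCA), the subunits of photosystem II (PSB) and photosystem I (PSA), the small subunit of Rubisco (RBCS), plastocyanin (PETE) and the Rieske protein (PETC). Of these 48 genes, 36 had a value among the 21313 genes of the table, namely 7 of 14 LHCB, 4 of 5 LHCA, 12 of 12 PSA, 10 of 10 PSB and 3 of 3 electron carrier genes. LHCB1.1 to LHCB1.5, LHCB2.1, LHCB2.2, LHCA2 and the 4 RBCS genes were not analysed here. The statements below therefore cover the minor antenna and the photosystem subunits, and LHCB2.3 and LHCB3 of the major antenna, but not Rubisco.

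The seeds were of the accession Cvi of the Cape Verde Islands, which is strongly dormant, and the study asked how gene expression unfolds in imbibed seeds that do not go on to germinate. RNA came from whole dry D seeds and from 2 compartments cut from D seeds at 4 times after sowing in water, 3, 7, 12 and 24 HAS (hours after sowing). The MCE was endosperm, the tissue around the embryo, from the micropylar and chalazal ends, and the RAD was the radicle with the hypocotyl, the part of the embryo that would emerge. This gave 9 samples with 3 Affymetrix ATH1 arrays each, 27 arrays in all, and no other samples were analysed here. All 9 samples were of 1 accession and 1 dormancy state, with no treatment other than water. Cotyledons and shoot apex were part of the dry seeds but of neither compartment, and the light given to the dissected seeds is not given in the sources used here. A kit was used to isolate RNA from the RAD, whereas dry seeds and MCE were extracted by a hot borate method, so that a difference between MCE and RAD cannot be told apart from the isolation method, nor can one between dry seeds and RAD. The labels say that plants were grown in 3 replicates but tie no array to a lot of plants, so that p-values measure the spread between these arrays, which may be in part technical.

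The antenna proteins bind chlorophyll and pass the absorbed energy to the reaction centres, photosystem II takes electrons from water, the cytochrome complex with its Rieske protein and plastocyanin carry them on, and photosystem I hands them to ferredoxin. The genes studied here lie in the nucleus, and in leaves their transcripts are abundant and accumulate together in the light. Embryos of Arabidopsis turn green during seed development and lose their chlorophyll as the seed matures, and the apparatus is built up again in the seedling. The endosperm of the mature seed is a living cell layer around the embryo and is left behind after germination.

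Most of these genes stayed below the level taken as expression in every sample. Values are the deposited log2 values, and a sample mean above 5 over 3 arrays was taken as expression, the threshold of the study. Of the 36 genes, 13 (36.1%) passed it in at least 1 sample, against 55.4% of all genes, 4 passed it in all 9 samples, against 39.1% of all genes, and 23 in none. The 4 genes above 5 in every sample were LHCB4.1 (AT5G01530_at) and LHCB4.3 (AT2G40100_at), copies of the minor antenna protein CP29 of photosystem II, PSBP1 (AT1G06680_at), an extrinsic protein of the oxygen-evolving complex, and PSBR (AT1G79040_at), a small protein needed for binding PSBP. The other 9 were LHCB4.2 (AT3G08940_at), also CP29, LHCB5 (AT4G10340_at), the minor antenna protein CP26, LHCA1 (AT3G54890_at) and LHCA4 (AT3G47470_at) of the photosystem I antenna, PSAD2 (AT1G03130_at) and PSAE2 (AT2G20260_at), on the stromal face of photosystem I where ferredoxin docks, PSBS (AT1G44575_at), the sensor for the heat dissipation of excess light, PSBW (AT2G30570_at), a small photosystem II subunit, and PETC (AT4G03280_at). All 13 were above 5 in dry seeds. With the later time points the number above 5 went from 8 through 7 and 6 to 5 in the MCE and from 11 through 9 and 7 to 7 in the RAD. Over the same samples the number of all genes above 5 went from 9738 in dry seeds to 10433 in the MCE and 10288 in the RAD at 24 HAS.

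**Figure D1:**
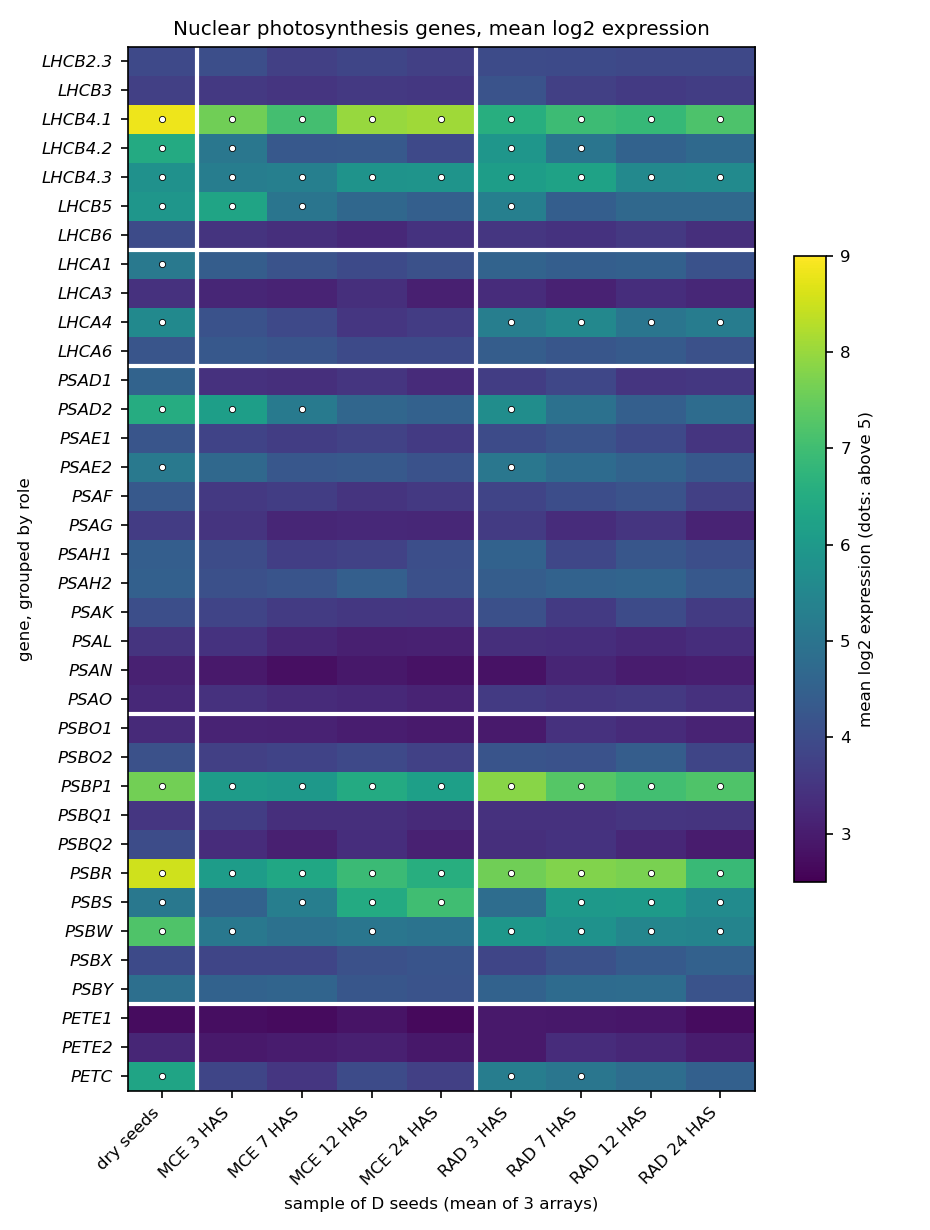
Mean log2 expression (colour, 3 arrays each) of the 36 genes with a value, in rows grouped by role, in the 9 D samples in columns, with a dot where the mean was above 5. Dots fill the dry seed column for 13 genes and thin out to 5 in the MCE and 7 in the RAD at 24 HAS, and the colour of 23 genes stays below that threshold in every column.

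The highest of a gene's 9 sample means lay in dry seeds for 18 of the 36 genes (50%), against 19.1% of all genes. Among the 18, LHCB6, LHCA3, PSAD1, PSAE1, PSAF, PSAG, PSAL, PSBQ2 and PSBY did not pass 5 in any sample, so that for these the ranking is one of means below that threshold. Among the 23 genes that never passed 5, sample means ran from 2.67 for PETE1, a plastocyanin gene, to 4.86 for PSBY, a small photosystem II subunit, and the range of a gene's 9 means from 0.28 for PETE1 to 1.28 for PSAD1, the other copy of PSAD. All 9 means were below 4 in 10 of these genes. The 23 genes were LHCB2.3 and LHCB3 of the trimeric antenna, LHCB6, the minor antenna protein CP24, LHCA3 and LHCA6, PSAD1, PSAE1, PSAF, PSAG, PSAH1, PSAH2, PSAK, PSAL, PSAN and PSAO of photosystem I, PSBO1, PSBO2, PSBQ1 and PSBQ2 of the oxygen-evolving complex, PSBX and PSBY, and both plastocyanin genes PETE1 and PETE2. None of the 23 was called in any of the 15 comparisons described below, and since that call treats means below 4 as 4, changes among such means could not count.

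Replicate arrays correlated at 0.987 to 0.996 over all genes and arrays of different samples at 0.899 to 0.990, and no 2 arrays held identical values. The compartments were checked against markers. EPR1, an endosperm gene, had means of 13.65 to 13.79 in the MCE and 6.44 to 7.27 in the RAD, and PLT2, a root stem cell factor, 3.05 to 3.3 in the MCE and 4.46 to 4.95 in the RAD. Over the 5 endosperm markers the summed log2 value was 36.1 to 43.6 on MCE arrays and 27.1 to 29.7 on RAD arrays. At 3 HAS EPR1 was the only marker of the 5 called between the compartments, with a log2 difference of 6.43. The others were at 0.22 (EXPA2), -0.55 (MAN7), 0.29 (MAN5) and 0.51 (MFT). At 24 HAS MAN7 (2.12) and MFT (1.23) were also called higher in the MCE, and EXPA2 (0.60) and MAN5 (0.20) were not called. Several defining markers were below 5 in the compartment they mark, EXPA2 in the MCE and SHR, PLT1, PLT2 and MP in the RAD, and SCR, listed for the radicle, was at 8.04 in the MCE and 7.70 in the RAD at 24 HAS. WOX5 was not analysed here.

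From dry seeds to 3 HAS, 7 of these genes fell in the MCE and 3 in the RAD, among them PETC, LHCB4.1 and PSBW in both, and none rose. Dry seeds were whole and the compartments were dissected, so that imbibition time and tissue cannot be told apart in this step. The endosperm gene EPR1, for instance, was lower by 5.59 on the log2 scale in the RAD than in dry seeds. Here and below, fell and rose from dry seeds mean only lower and higher values in the compartment. A gene was called when its limma adjusted p was under 0.05 and its sample means, after means below 4 were raised to 4, differed at least 2-fold. The 7 genes were 19.4% of the 36, beside 4.57% of all genes higher and 3.89% lower, and the log2 change to the MCE was negative for 30 of the 36. The 3 genes were 8.33%, beside 3.83% of all genes higher and 4.05% lower, and the change to the RAD was negative for 26. The median log2 change over the 36 genes stood at -0.38 for the MCE and -0.24 for the RAD, where the medians over all genes were -0.01 and 0.01. Both comparisons use the same dry seed arrays, and in each the 2 means compared were below 5 for 23 of the 36 genes. With no fold minimum, by adjusted p alone, 16 of the 36 were lower and none higher in the MCE, beside 15.2% of all genes higher and 14.9% lower, and 11 were lower and 1 higher in the RAD, beside 15.6% of all genes higher and 15.6% lower. The gene with a higher value in the RAD was LHCB3 (0.42, SE 0.12, limma adjusted p = 0.00649).

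PETC, the Rieske iron-sulfur protein of the cytochrome complex, lay at 6.34, 6.27 and 6.25 on the dry seed arrays, at 3.91, 3.65 and 3.99 on the MCE arrays at 3 HAS and at 5.01, 5.67 and 5.11 on the RAD arrays. The dry seed arrays were above all arrays of both compartments. It fell by 2.44 on the log2 scale (5.42-fold, SE 0.17, limma adjusted p = 2.41e-11) to the MCE and by 1.02 on the log2 scale (2.03-fold, SE 0.17, limma adjusted p = 4.37e-05) to the RAD. The second call was lost without dry seed array 1 or RAD array 1 or 3, when the log2 change was -1.0, -0.89 and -0.95. PSBR lay at 8.61, 8.61 and 8.39 in dry seeds, at 6.08, 6.16 and 6.02 in the MCE and at 7.41, 7.63 and 7.74 in the RAD, without overlap. To the MCE it fell by 2.45 on the log2 scale (5.46-fold, SE 0.20, limma adjusted p = 2.55e-10), and its change to the RAD of -0.94 (SE 0.20, limma adjusted p = 0.000504) did not reach 2-fold.

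LHCB4.1 was lower in the RAD than in the MCE. Its arrays were at 8.84, 8.70 and 8.98 in dry seeds, at 7.96, 7.51 and 7.34 in the MCE and at 6.57, 6.57 and 6.59 in the RAD at 3 HAS, in that order and without overlap. LHCB4.1 fell by 1.24 on the log2 scale (2.36-fold, SE 0.18, limma adjusted p = 5.46e-06) to the MCE and by 2.27 on the log2 scale (4.81-fold, SE 0.18, limma adjusted p = 3.5e-10) to the RAD, the largest decrease of the 36 genes there. PSBW went from 7.31, 7.15 and 7.17 in dry seeds to 5.12, 4.94 and 5.28 in the MCE and 6.04, 5.95 and 5.82 in the RAD, again with the dry seed arrays above all others. PSBW fell by 2.1 on the log2 scale in the MCE (SE 0.19, limma adjusted p = 1.29e-09) and by 1.28 in the RAD (SE 0.19, limma adjusted p = 5.28e-06).

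The 3 other calls were in the MCE. PSBP1 fell by 1.56 on the log2 scale (2.95-fold, SE 0.15, limma adjusted p = 4.04e-09) from 7.62 ± 0.23 (SD, n = 3) to 6.06 ± 0.23. LHCA4 fell by 1.44 on the log2 scale (2.72-fold, SE 0.23, limma adjusted p = 1.95e-05) from 5.58 ± 0.36 to 4.14 ± 0.61. LHCB4.2 fell by 1.4 on the log2 scale (2.63-fold, SE 0.17, limma adjusted p = 3.79e-07) from 6.47 ± 0.21 to 5.08 ± 0.28. None of these 3 changed 2-fold toward the RAD, where the log2 change was 0.22 for PSBP1, -0.29 for LHCA4 and -0.57 for LHCB4.2. LHCB5 did not pass the test in either comparison, with arrays at 5.91, 5.27 and 6.54 in dry seeds that overlapped those of both compartments. With the methods' t-test and Benjamini-Hochberg adjustment the call of LHCA4 was lost (adjusted p = 0.0897).

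Dry seeds held cotyledons and shoot apex, which the compartments did not. Of 6 markers of these organs, YAB3, PHB and FIL were called lower in the MCE at 3 HAS and YAB3 was called lower in the RAD, with list medians of -0.80 and -0.01. YAB3, expressed on the lower side of cotyledons and leaves, was at 6.70 ± 0.34 in dry seeds, 4.08 ± 0.26 in the MCE and 3.77 ± 0.20 in the RAD at 3 HAS. Over the 6 shoot apex and cotyledon markers the summed log2 value was 27.2 to 28.2 on dry seed arrays and 21.3 to 25.3 on all other arrays, 3 of the 6 were above 5 in dry seeds, and STM and CLV3 were below 5 in every sample. To the RAD the log2 change was -0.85 for FIL, -0.07 for PHB, 0.05 for STM, 0.22 for KAN1 and 0.30 for CLV3, so that 3 of the 6 estimates were above 0. The part of these organs in the decreases was not tested. Fewer cells of a type and less RNA per cell cannot be told apart in these samples, here and in the comparisons below.

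**Figure D2:**
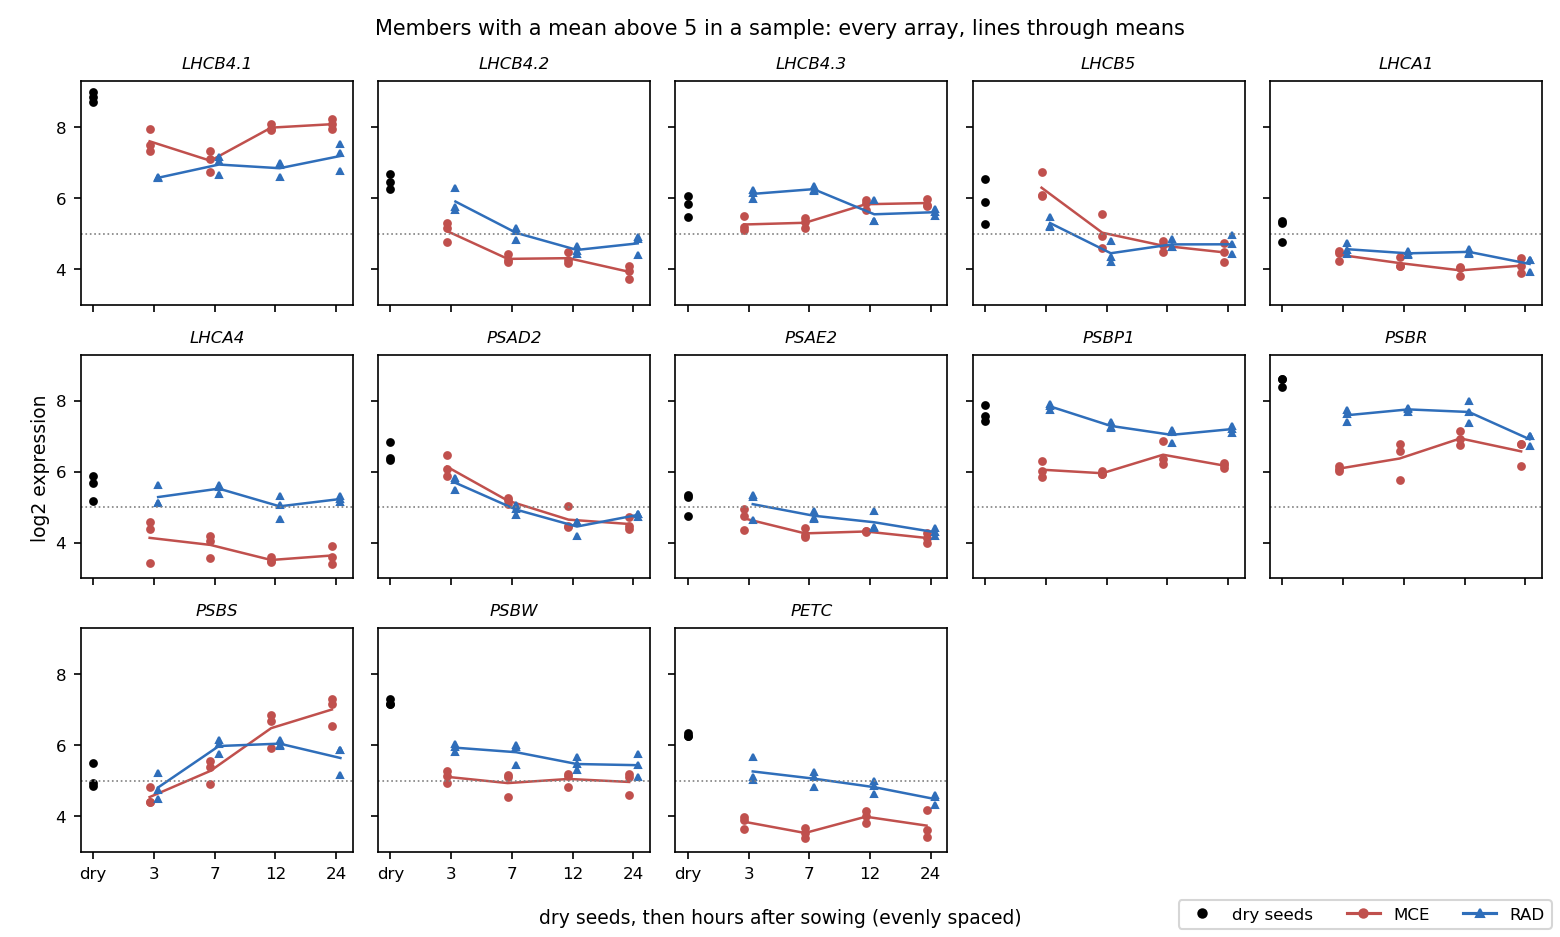
Log2 expression on every array (points) of the 13 genes with a mean above 5 in at least 1 sample, in dry seeds (black) and by hours after sowing in the MCE (red circles) and the RAD (blue triangles), with lines through the means of 3 arrays and a dotted line at 5. The dry seed points lie at or near the top of most panels, and PSBS is the gene whose MCE line ends highest above its start, at 7.01 from 4.54.

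Within the MCE from 3 to 24 HAS, PSBS rose, and LHCB5, LHCB4.2 and PSAD2 fell. Of the 36 genes 1 was called higher and 3 lower (11.1% in all), beside 6.44% of all genes higher and 3.67% lower, and by adjusted p alone 3 were higher and 6 lower, beside 18.8% of all genes higher and 16.8% lower. The median log2 change was -0.14 over the 36 genes and -0.05 over all genes. Deposited values have 7 decimals for dry seeds and for 3 and 7 HAS of the MCE but 9 for the rest. Of the MCE intervals, those from 3 to 24 and from 7 to 12 HAS cross this split, as do the step from dry seeds to the RAD and the comparisons of MCE and RAD at 3 and 7 HAS, whereas intervals within the RAD do not. Its part in the differences was not tested.

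PSBS started at 4.42, 4.40 and 4.82 on the 3 HAS arrays of the MCE, was at 4.91, 5.38 and 5.55 by 7 HAS, at 5.92, 6.69 and 6.84 by 12 HAS and ended at 6.55, 7.31 and 7.17. The arrays at 3 HAS lay below those at 7 HAS and these below those at 12 HAS, while the arrays at 12 and 24 HAS overlapped. From 3 to 24 HAS it rose by 2.47 on the log2 scale (5.52-fold, SE 0.25, limma adjusted p = 1.12e-08), the largest change of the 36 genes in this comparison. The step from 7 to 12 HAS was the only call in that interval (1.2, SE 0.25, limma adjusted p = 0.00165), beside 0.854% of all genes higher and 0.784% lower. The methods' t-test with Benjamini-Hochberg adjustment did not call this step (adjusted p = 0.245). Of the 36 genes, PSBS alone had a mean at 24 HAS (7.01) above that of dry seeds (5.10) by more than 1 on the log2 scale.

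LHCB5 started at 6.73, 6.09 and 6.06, was at 4.93, 5.55 and 4.60 by 7 HAS, at 4.70, 4.80 and 4.49 by 12 HAS and ended at 4.75, 4.21 and 4.48. The 3 HAS arrays were above all later ones, and the later time points overlapped. LHCB5 fell by 1.82 on the log2 scale (3.53-fold, SE 0.25, limma adjusted p = 1.81e-06) from 3 to 24 HAS. Its step from 3 to 7 HAS (-1.27, SE 0.25, limma adjusted p = 0.000355) was the only call in that interval, beside 3.53% of all genes higher and 1.7% lower, and was lost with the methods' t-test (Benjamini-Hochberg adjusted p = 0.124).

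PSAD2 started at 6.08, 6.47 and 5.88, was at 5.25, 5.21 and 5.10 by 7 HAS, at 5.03, 4.49 and 4.44 by 12 HAS and ended at 4.74, 4.48 and 4.38. Its means were lower at each later time point, with no overlap between 3, 7 and 12 HAS. From 3 to 24 HAS it fell by 1.61 on the log2 scale (3.06-fold, SE 0.17, limma adjusted p = 2.84e-08). LHCB4.2 lay at 4.76, 5.15 and 5.31 at 3 HAS and 4.1, 3.94 and 3.74 at 24 HAS, without overlap, and fell by 1.15 on the log2 scale (2.22-fold, SE 0.17, limma adjusted p = 5.8e-06). The latter call was lost without MCE array 3 of 3 HAS, when the log2 change was -1.03 and the difference after the floor was under 2-fold.

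Other genes with a mean above 5 in at least 1 sample were not called over this interval. One of them, LHCA1, was above 5 in dry seeds only. PSBR had a change of 0.49 (SE 0.20, limma adjusted p = 0.0585), PSBP1 of 0.12 (SE 0.15, limma adjusted p = 0.6) and LHCA1 of -0.31 (SE 0.15, limma adjusted p = 0.107) from 3 to 24 HAS. LHCB4.1 started at a mean of 7.60, was at 7.06 by 7 HAS, at 7.99 by 12 HAS and ended at 8.08, and its difference between 7 and 12 HAS (0.93, SE 0.18, limma adjusted p = 0.00107) came close to 2-fold. From 12 to 24 HAS limma called none of the 36 genes, beside 0.971% of all genes higher and 0.131% lower, with 5 at an unadjusted p under 0.05, none of these 2-fold, and the methods' t-test called none. With the fold minimum dropped, the steps 3 to 7, 7 to 12 and 12 to 24 HAS gave 6, 5 and 0 of the 36, beside 26.9%, 12% and 4.27% of all genes.

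In the RAD most estimates from 3 to 24 HAS were decreases of under 2-fold. Over this interval 1 gene of 36 (2.78%) fell at least 2-fold and none rose, beside 7.35% of all genes higher and 4.82% lower. Without the fold minimum 17 of the 36 passed, 3 higher and 14 lower, beside 20.3% of all genes higher and 17.9% lower. The log2 change was negative for 29 of the 36 (80.6%), against 55.1% of all genes, and its median was -0.32, against -0.04. Both means were below 5 for 24 of the 36, so that many of these signs come from genes under the expression threshold. The 14 were LHCB3, LHCB4.2, LHCB4.3, LHCA1, PSAD2, PSAE1, PSAE2, PSAG, PSAH1, PSAK, PSBP1, PSBR, PSBW and PETC, of which LHCB3, PSAE1, PSAG, PSAH1 and PSAK had no mean above 5 in any sample. The 3 with a higher value at 24 HAS were LHCB4.1, PSBS and PSBX.

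LHCB4.2 was the gene called. Its arrays started at 5.74, 6.30 and 5.68, were at 5.18, 5.08 and 4.81 by 7 HAS, at 4.44, 4.67 and 4.52 by 12 HAS and ended at 4.92, 4.40 and 4.86, with the 3 HAS arrays above all later ones. It fell by 1.18 on the log2 scale (2.26-fold, SE 0.17, limma adjusted p = 3.2e-06). Without RAD array 2 of 3 HAS the log2 change was -0.98 and the call was lost. PSAD2 went from 5.84, 5.75 and 5.48 at 3 HAS to 4.82, 4.73 and 4.81 at 24 HAS, a change of -0.90 (SE 0.17, limma adjusted p = 0.000105) that stayed under 2-fold. LHCA1 went from 4.53, 4.73 and 4.43 to 4.27, 3.92 and 4.26 over the same interval, with the later arrays all lower (-0.41, SE 0.15, limma adjusted p = 0.0248). Likewise under 2-fold were PSAE2 at -0.79 (SE 0.18, limma adjusted p = 0.000748), PETC at -0.78 (SE 0.17, limma adjusted p = 0.00068) and PSBP1 at -0.64 (SE 0.15, limma adjusted p = 0.000919).

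PSBS rose from 3 to 7 HAS in the RAD and was not called in the later steps. It started at 4.73, 5.21 and 4.5, was at 6.04, 6.14 and 5.76 by 7 HAS, at 6.15, 5.99 and 6.01 by 12 HAS and ended at 5.88, 5.88 and 5.17. The arrays at 7 HAS were above those at 3 HAS, those at 24 HAS below those at 12 HAS. From 3 to 7 HAS it rose by 1.17 on the log2 scale (2.24-fold, SE 0.25, limma adjusted p = 0.000604), the only call among the 36 genes in this interval, beside 3.35% of all genes higher and 2.78% lower. The methods' t-test gave it an adjusted p = 0.0513. From 7 to 12 HAS limma called none of the 36, beside 0.314% of all genes higher and 0.493% lower, with 8 at an unadjusted p under 0.05, none of these 2-fold. From 12 to 24 HAS it again called none, beside 0.676% of all genes higher and 0.385% lower, with 7 at an unadjusted p under 0.05 and none of these 2-fold. The methods' t-test called none in either interval. By adjusted p alone the 3 RAD steps gave 10, 1 and 3 of the 36 in order, beside 28.6%, 5.09% and 9.98% of all genes.

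**Figure D3:**
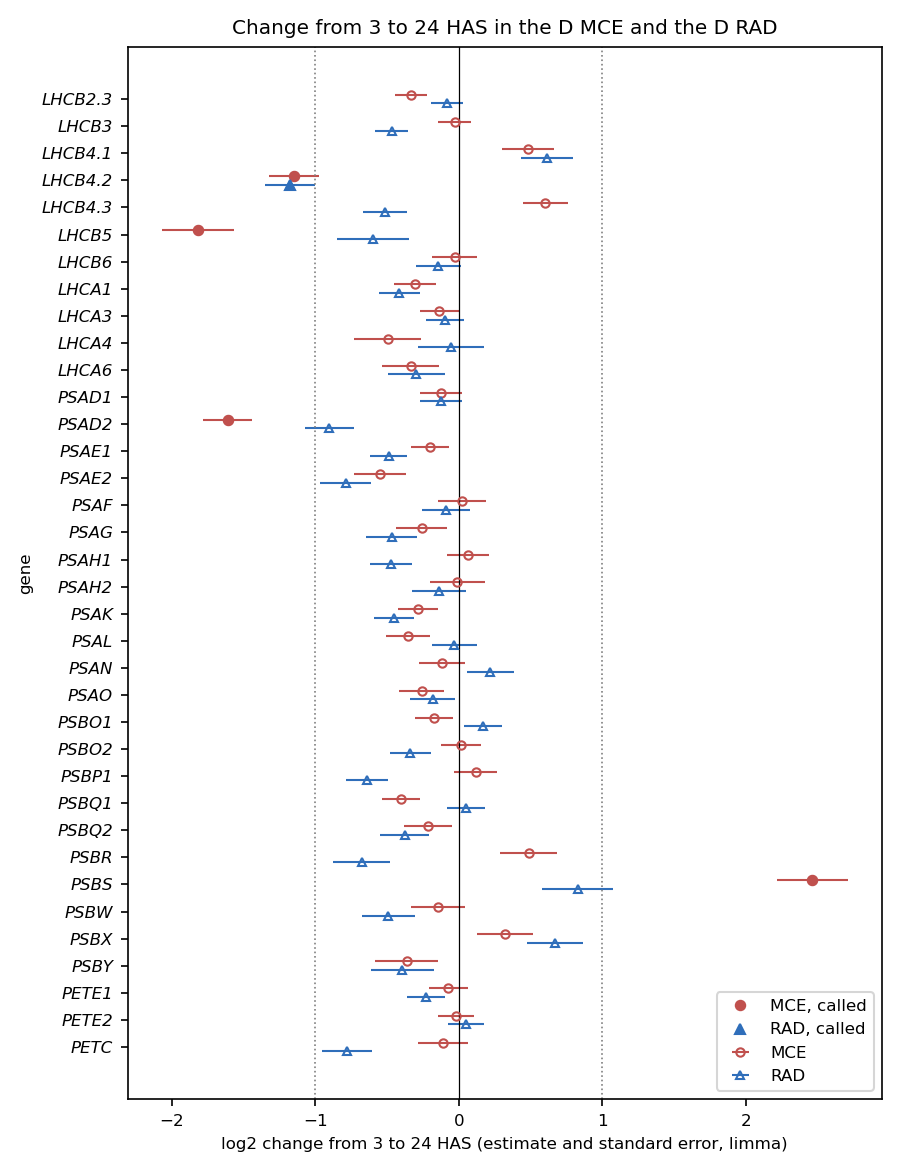
Log2 change from 3 to 24 HAS of the 36 genes with its limma estimate (points) and standard error (bars), in the MCE (red circles) and the RAD (blue triangles), filled where called, with dotted lines at a 2-fold change in either direction. PSBS (2.47) and LHCB5 (-1.82) in the MCE lie farthest from 0, and 29 of the 36 RAD estimates lie below 0, where both RAD means were below 5 for 24 of the 36 genes.

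Whether the change from 3 to 24 HAS differed between the compartments was tested by the interaction in the same fit. It was called for 4 of the 36 genes, 3 with a higher change in the MCE and 1 with a lower, beside 2.51% of all genes higher and 2.09% lower. By adjusted p alone it passed for 5, beside 11.7% of all genes. For PSBS the change in the MCE exceeded that in the RAD by 1.64 (SE 0.35, limma adjusted p = 0.00214). PSBR had a change of 0.49 in the MCE against -0.68 in the RAD, and the difference was 1.16 (SE 0.28, limma adjusted p = 0.00624).

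LHCB4.3 had estimates of opposite sign in the compartments. In the MCE it went from 5.18, 5.51 and 5.09 at 3 HAS to 5.81, 5.79 and 5.99 at 24 HAS, and in the RAD from 6.14, 6.24 and 5.99 to 5.60, 5.51 and 5.71. The MCE arrays were all higher at 24 HAS and the RAD arrays all lower. The changes of 0.60 (SE 0.15, limma adjusted p = 0.00269) and -0.51 (SE 0.15, limma adjusted p = 0.0089) were both under 2-fold, and they differed by 1.12 (SE 0.22, limma adjusted p = 0.000896). LHCB5 had a change of -1.82 in the MCE against -0.60 in the RAD, from 5.23, 5.47 and 5.20 to 4.97, 4.44 and 4.70, and the difference was -1.22 (SE 0.36, limma adjusted p = 0.0244). This last call was lost when any of 5 arrays was left out, RAD array 1 or 3 of 3 HAS, RAD array 1 of 24 HAS, MCE array 1 of 3 HAS or MCE array 2 of 24 HAS, with limma adjusted p between 0.0508 and 0.081.

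Between the compartments 6 of the genes were called at 1 or more time points, with LHCA4, PSBP1, PSBR and PETC lower and LHCB4.1 and PSBS higher in the MCE. At 3 HAS LHCB4.1 was higher in the MCE and 4 genes were lower, beside 4.83% of all genes higher and 3.9% lower. At 7 HAS none was higher and 4 were lower, beside 7.59% of all genes higher and 5.38% lower. At 12 HAS LHCB4.1 was higher and LHCA4 lower, beside 8.12% of all genes higher and 5.23% lower, and at 24 HAS PSBS was higher and LHCA4 and PSBP1 lower, beside 7.1% of all genes higher and 6.25% lower. By adjusted p alone the counts in time order were 13, 12, 11 and 7 of the 36, beside 33.1%, 40.6%, 41.7% and 39.4% of all genes. The median log2 difference over the 36 genes in the same order was -0.18, -0.29, -0.23 and -0.16, and over all genes it lay between -0.08 and -0.03. The endosperm marker sum given above moves with the compartment, and its part in these differences was not tested.

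LHCA4, of the photosystem I antenna, was the gene called at every time point. Its arrays at 24 HAS were at 3.61, 3.92 and 3.41 in the MCE and at 5.22, 5.33 and 5.15 in the RAD. The RAD arrays lay above all MCE arrays at each of the 4 time points. The log2 difference started at -1.15 (SE 0.23, limma adjusted p = 0.0003), was -1.58 by 7 HAS and -1.51 by 12 HAS, and ended at -1.59 (SE 0.23, limma adjusted p = 2.94e-06). Means of LHCA4 ran from 5.03 to 5.53 in the RAD, beside 5.58 in dry seeds, and were below 5 in the MCE throughout. The difference thus lay across the expression threshold, and with a floor of 5 the call was lost at every time point. The call at 3 HAS was lost without RAD array 1 (-0.98) or MCE array 2 (-0.80), and that at 12 HAS without RAD array 3 of 12 HAS (-1.36), when the difference after the floor was under 2-fold. The methods' t-test did not call it at 3 HAS (Benjamini-Hochberg adjusted p = 0.136).

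PSBP1 lay at 6.31, 6.03 and 5.85 in the MCE and at 7.75, 7.92 and 7.86 in the RAD at 3 HAS, and at 24 HAS it lay at 6.23, 6.12 and 6.18 in the MCE against 7.3, 7.21 and 7.1 in the RAD. The compartments did not overlap at 3, 7 and 24 HAS. Its difference of -1.78 (SE 0.15, limma adjusted p = 3.49e-10) at 3 HAS was the largest of the 36 genes at that time point, and at 24 HAS it was -1.03 (SE 0.15, limma adjusted p = 2.26e-06). The call at 24 HAS was lost without RAD array 1 (-0.98) or MCE array 2 (-1.0).

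PSBR and PETC were called lower in the MCE at 3 and 7 HAS and not at 12 or 24 HAS. The MCE and RAD values also differ in their number of decimals at 3 and 7 HAS and not at 12 and 24 HAS, and the part of this split was not tested. PSBR was at 6.09 ± 0.07 in the MCE and 7.59 ± 0.16 in the RAD at 3 HAS (log2 difference -1.5, SE 0.20, limma adjusted p = 1.1e-06), and its 24 HAS arrays were at 6.16, 6.78 and 6.78 in the MCE against 7.01, 7.00 and 6.73 in the RAD, where the compartments overlapped (-0.34, SE 0.20, limma adjusted p = 0.196). PETC had its highest MCE value at 4.17 and lay between 4.31 and 5.67 on RAD arrays. Its difference was -1.42 (SE 0.17, limma adjusted p = 3.63e-07) at 3 HAS and -0.75 (SE 0.17, limma adjusted p = 0.000958) at 24 HAS, the latter not called. Without RAD array 2 of 7 HAS the call of PETC at 7 HAS was lost, with a log2 difference of -1.44.

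LHCB4.1 and PSBS were the genes higher in the MCE. For LHCB4.1 the difference started at 1.03 (SE 0.18, limma adjusted p = 6.52e-05), was 0.11 by 7 HAS and 1.14 (SE 0.18, limma adjusted p = 1.06e-05) by 12 HAS, and ended at 0.89, and the compartments overlapped only at 7 HAS. At 24 HAS its arrays were at 8.09, 7.94 and 8.22 in the MCE and 7.28, 6.76 and 7.53 in the RAD. Without MCE array 1 of 3 HAS the call at 3 HAS was lost (0.85). PSBS passed from below the RAD at 7 HAS (-0.70, SE 0.25, limma adjusted p = 0.0242, under 2-fold) to above it at 24 HAS (log2 difference 1.37, SE 0.25, limma adjusted p = 5.54e-05). With the methods' t-test and Benjamini-Hochberg adjustment the call of PSBS at 24 HAS was lost (adjusted p = 0.0522).

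**Figure D4:**
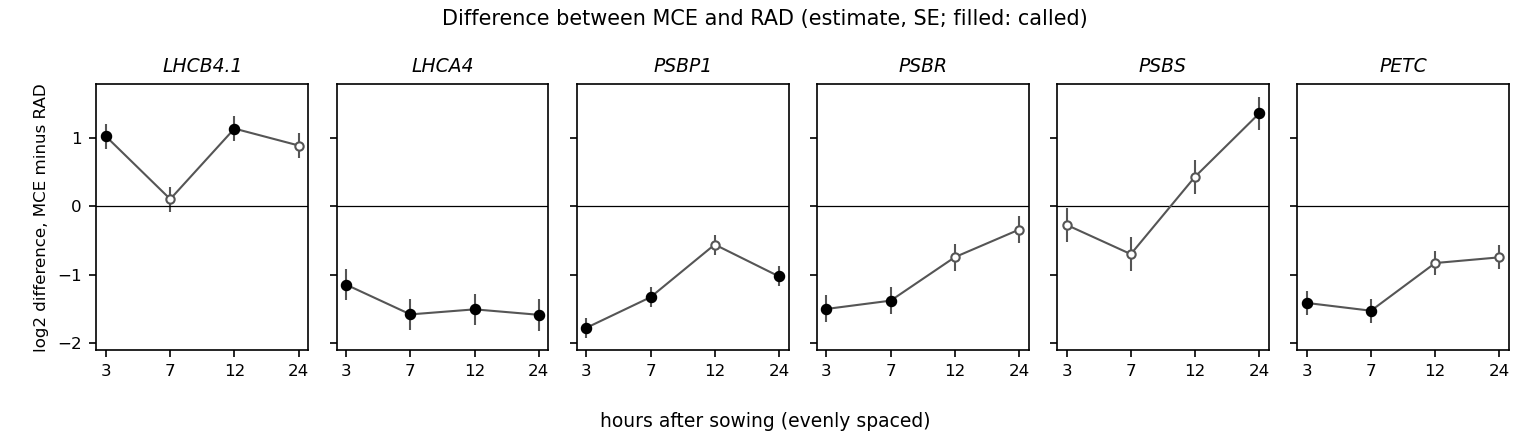
Log2 difference between MCE and RAD (limma estimate with standard error) at 3, 7, 12 and 24 HAS of the 6 genes called in at least 1 of these comparisons, filled where called. LHCA4 stays below 0 at all 4 time points, PSBS goes from -0.70 at 7 HAS to 1.37 at 24 HAS, and PSBR and PETC move toward 0.

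Other genes of the pathway were followed in lists, all of nuclear genes. All 11 further genes of thylakoid electron transport had a value, as did 14 of the Calvin-Benson cycle, 16 of chlorophyll synthesis and 12 regulators of photosynthesis genes. Of these, 11 of the 12 regulators were above 5 in at least 1 sample, and so were 6 of 11, 8 of 14 and 6 of 16 genes of the other lists in that order, beside 55.4% of all genes. The counts of the electron transport and Calvin-Benson lists were close to that share. The lists, like the genes above, were described by counts, with no test of a list as a whole.

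Among the regulators, the GATA factors CGA1 and GNC, which promote chloroplast development, were lower at 3 HAS than in whole dry seeds. CGA1 lay at 9.46, 9.55 and 9.59 in dry seeds, 6.29, 5.98 and 5.64 in the MCE and 5.28, 4.94 and 5.23 in the RAD at 3 HAS, without overlap. It fell by 3.56 on the log2 scale (11.8-fold, SE 0.16, limma adjusted p = 2.68e-15) to the MCE and by 4.38 on the log2 scale (SE 0.16, limma adjusted p = 2.01e-17) to the RAD. In the MCE 2 of the 12 regulators fell and none rose in this step, beside 4.57% of all genes higher and 3.89% lower, and in the RAD 3 fell and 1 rose, beside 3.83% of all genes higher and 4.05% lower, with list medians of -0.18 and -0.16. In the RAD, COP1, a repressor of light responses, also fell (-1.16, SE 0.14, limma adjusted p = 4.58e-07) and ABI4, a factor of abscisic acid signalling, rose (2.0, SE 0.18, limma adjusted p = 1.63e-09).

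GLK1 and GLK2 encode the factors that directly activate antenna and chlorophyll synthesis genes. GLK1 had means of 4.31 to 4.72 and was not above 5 in any sample. GLK2 was at 7.32 ± 0.24 in dry seeds and at 7.05, 6.74 and 6.38 in the MCE at 3 HAS, against 5.56, 5.54 and 5.50 at 24 HAS. In the RAD it went from 7.09, 7.03 and 7.06 to 5.73, 5.61 and 5.49. From 3 to 24 HAS GLK2 fell by 1.19 on the log2 scale (2.29-fold, SE 0.16, limma adjusted p = 8.18e-07) in the MCE and by 1.45 on the log2 scale (SE 0.16, limma adjusted p = 2.78e-08) in the RAD.

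HY5, a bZIP factor of light signalling, was called in none of the 15 comparisons, and its mean of 7.60 in dry seeds stood beside 7.26 in the MCE and 6.82 in the RAD by 24 HAS. HYH, its homologue, rose by 1.49 on the log2 scale (2.81-fold, SE 0.22, limma adjusted p = 5.82e-06) in the MCE, and so did PIF1, a light-labile repressor of germination and chlorophyll synthesis (1.70, SE 0.15, limma adjusted p = 1.56e-09). From 3 to 24 HAS 2 of the 12 regulators rose and 1 fell in the MCE, beside 6.44% of all genes higher and 3.67% lower. GLK2 was the only regulator of the 12 called in the RAD over this interval, beside 7.35% of all genes higher and 4.82% lower. At 24 HAS 5 of the 12 regulators were higher in the MCE and 1 was lower, beside 7.1% of all genes higher and 6.25% lower. The differences were 1.65 for PIF3, 1.53 for CGA1, 1.44 for HYH, 1.4 for COP1 and 1.36 for PIF1, and -2.66 (SE 0.18, limma adjusted p = 2.69e-12) for ABI4, which lay at 4.84, 4.69 and 4.77 in the MCE and 7.40, 7.60 and 7.27 in the RAD.

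In chlorophyll synthesis 3 of 16 genes rose and none fell from 3 to 24 HAS in the MCE, beside 6.44% of all genes higher and 3.67% lower, and 1 rose in the RAD, close to the 7.35% of all genes that were higher there, with list medians of 0.13 and 0.06. CHLG, chlorophyll synthase, lay at 4.0, 3.81 and 3.97 in the MCE at 3 HAS and at 5.61, 5.76 and 5.78 at 24 HAS, and rose by 1.79 on the log2 scale (3.46-fold, SE 0.14, limma adjusted p = 2.17e-10). In the RAD its change was 0.09 (SE 0.14, limma adjusted p = 0.663), and the interaction was called (1.70, SE 0.20, limma adjusted p = 1.58e-06). CHLM, a methyltransferase of the magnesium branch, rose by 1.79 on the log2 scale (3.47-fold, SE 0.17, limma adjusted p = 4.53e-09) in the RAD and by 1.14 in the MCE (SE 0.17, limma adjusted p = 7.59e-06), where GSA2, an early enzyme of the pathway, rose too (1.12, SE 0.14, limma adjusted p = 6.2e-07). At 24 HAS CHLM was at 5.05 ± 0.45 in the MCE and 7.22 ± 0.16 in the RAD (log2 difference -2.18, SE 0.17, limma adjusted p = 1.02e-10). From dry seeds to 3 HAS 2 of the 16 fell in the MCE and none rose, beside 4.57% of all genes higher and 3.89% lower. In the RAD 1 fell and none rose, beside 3.83% of all genes higher and 4.05% lower. CAO, which makes chlorophyll b, fell from 7.12 ± 0.22 in dry seeds to 5.94 ± 0.04 in the MCE (-1.17, SE 0.15, limma adjusted p = 6.32e-07) and 6.05 ± 0.22 in the RAD at 3 HAS (-1.07, SE 0.15, limma adjusted p = 3.18e-06). The largest absolute log2 change of the list to the MCE was 2.18, in a gene other than CAO. All means were below 4 in 9 of the 16 genes, HEMA1, GUN4, CHLH, CHLI2, CRD1, DVR and the protochlorophyllide reductase genes PORA, PORB and PORC.

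In thylakoid electron transport 2 of 11 genes rose and none fell from 3 to 24 HAS in the MCE, beside 6.44% of all genes higher and 3.67% lower, and none was called in the RAD, beside 7.35% of all genes higher and 4.82% lower, with list medians of -0.03 and 0.04. FD1, a leaf-type ferredoxin, lay at 5.03, 4.97 and 5.09 at 3 HAS and 7.1, 7.58 and 7.17 at 24 HAS in the MCE, and rose by 2.25 on the log2 scale (4.76-fold, SE 0.17, limma adjusted p = 7.81e-11). In the RAD FD1 rose by 2.08 on the log2 scale (4.22-fold, SE 0.17, limma adjusted p = 9.96e-10) from 3 to 7 HAS and its change over the whole interval was 0.67 (SE 0.17, limma adjusted p = 0.00199), under 2-fold. PGR5, a protein of cyclic electron flow, rose by 1.31 on the log2 scale (2.48-fold, SE 0.18, limma adjusted p = 2.21e-06) in the MCE. In the RAD PGR5 rose by 1.14 from 3 to 7 HAS (SE 0.18, limma adjusted p = 2.56e-05). Its RAD change from 3 to 24 HAS was 0.46 (SE 0.18, limma adjusted p = 0.0492), under 2-fold. FD1 and PGR5 were the 2 of 11 genes called in the RAD from 3 to 7 HAS, beside 3.35% of all genes higher and 2.78% lower. From dry seeds to the MCE at 3 HAS, FD2, the other leaf ferredoxin, and PSB27, an assembly factor of photosystem II, fell (-1.46, SE 0.13, limma adjusted p = 7.32e-10, and -1.29, SE 0.14, limma adjusted p = 4.64e-08).

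In the Calvin-Benson cycle the log2 change from dry seeds to 3 HAS was negative for 13 of 14 genes in the MCE and 10 in the RAD. The list medians of this step were -0.50 and -0.23. In the MCE 1 gene was called higher and 1 lower, beside 4.57% of all genes higher and 3.89% lower. In the RAD 1 was called higher and none lower, beside 3.83% of all genes higher and 4.05% lower. TKL1, a transketolase, was higher in both compartments at 3 HAS than in whole dry seeds, and fell afterwards. It was at 6.59, 6.37 and 6.62 in dry seeds, 8.19, 8.24 and 8.74 in the MCE and 8.30, 8.39 and 8.50 in the RAD at 3 HAS, and went to 7.98, 7.15 and 6.74 in the MCE against 6.23, 6.50 and 6.14 in the RAD by 24 HAS. The step from dry seeds was 1.87 to the MCE (SE 0.31, limma adjusted p = 2.94e-05) and 1.87 to the RAD (SE 0.31, limma adjusted p = 3.14e-05). From 3 to 24 HAS TKL1 fell by 1.1 on the log2 scale (2.15-fold, SE 0.31, limma adjusted p = 0.00609) in the MCE and by 2.11 on the log2 scale (SE 0.31, limma adjusted p = 3.58e-06) in the RAD, the only gene of 14 to do so in each. Of all genes, 3.67% were called lower in the MCE and 4.82% in the RAD over this interval, and 7.35% were called higher in the RAD. GAPB, a subunit of plastid glyceraldehyde-3-phosphate dehydrogenase, rose by 1.22 on the log2 scale (2.32-fold, SE 0.18, limma adjusted p = 4.05e-06) in the RAD. At 24 HAS GAPB, GAPA1 and the plastid fructose-bisphosphatase CFBP1 were lower in the MCE by log2 differences of -1.05, -1.14 and -1.23, and TKL1 was higher (1.0). These were 3 lower and 1 higher of 14, beside 6.25% of all genes lower and 7.1% higher. From dry seeds to the MCE at 3 HAS, CFBP1 fell by 1.72 on the log2 scale (3.3-fold, SE 0.19, limma adjusted p = 5.78e-08). The list median from 3 to 24 HAS stood at -0.12 for the MCE and -0.10 for the RAD.

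**Figure D5:**
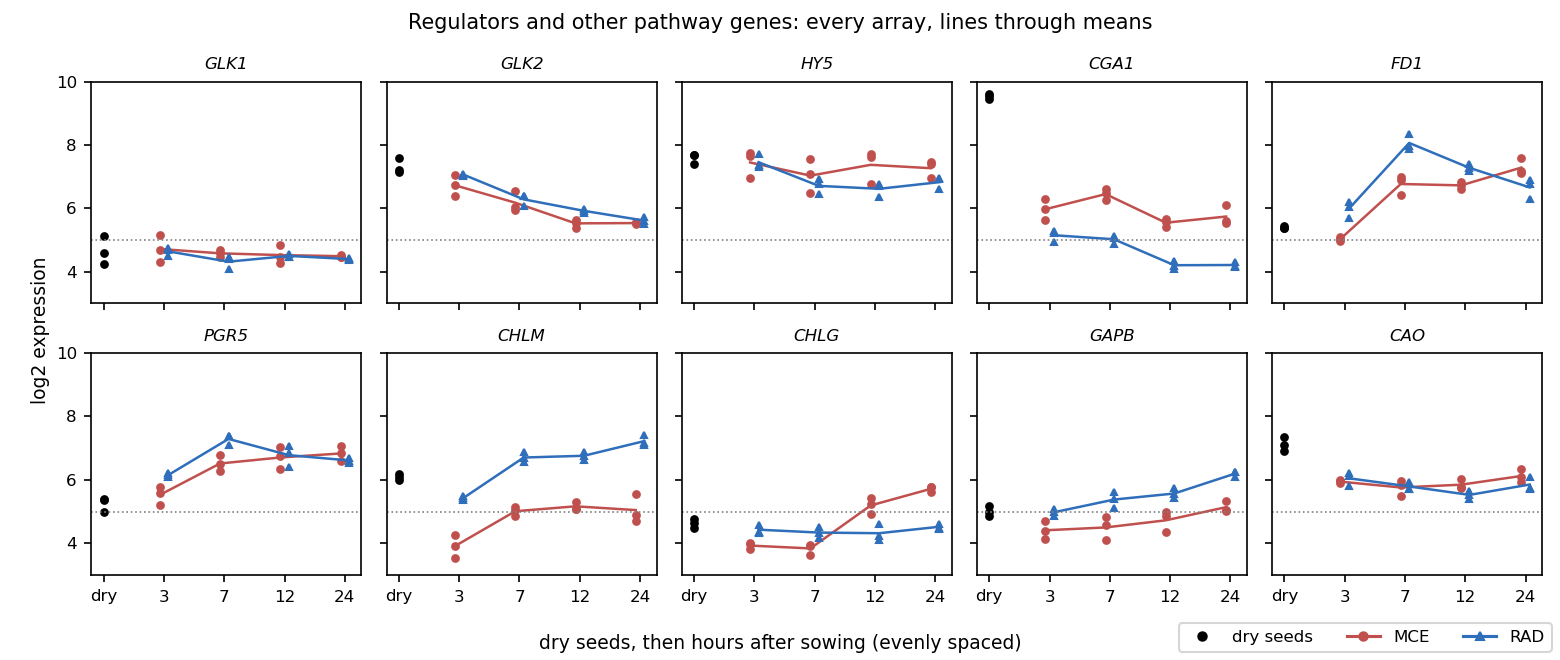
Log2 expression on every array (points) of 10 other pathway genes in dry seeds (black) and by hours after sowing in the MCE (red circles) and the RAD (blue triangles), with lines through the means of 3 arrays and a dotted line at 5. CGA1 drops from 9.53 in dry seeds to 5.97 and 5.15 at 3 HAS, GLK2 goes down in both compartments, CHLG goes up in the MCE, and GLK1 stays near 4.5.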

How the data were processed

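RNA of 9 samples of D seeds, 3 arrays each, was hybridized to Affymetrix ATH1 arrays. The authors made log2 values with RMA and a custom chip definition of 1 value per gene, in which these arrays were normalized together with others, so that values also depend on arrays not analysed here. The deposited log2 values of 21313 genes were used unchanged, and 0 columns were left unmapped. Symbols were taken from a gene table (assembly TAIR10.1) that matched 21205 of 21313 genes and all 36 measured members.

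The test was limma (lmFit, contrasts.fit, eBayes) on all 27 arrays in 9 groups, with 18 residual degrees of freedom, a prior of 7.25 and Benjamini-Hochberg adjustment over 21313 genes in each of 15 contrasts. Calls needed an adjusted p under 0.05 and a 2-fold difference of means after means below 4 were raised to 4. The methods' t-test, which the authors name without its form, was run as an equal-variance alternative. Other alternatives changed the fold rule, floor, normalization, variance model, arrays in the fit and filter on dim genes, or added the replicate number as a block. Further ones left out LHCB2.3, of a family of near-identical genes, or each array in turn. The genes and lists were chosen with earlier results of these data known. Per-array values are given for the highest gene and the largest changes in each role, for the 4 largest differences between compartments at 24 HAS and the 4 largest interactions, and for further called genes. From the other lists, called genes with the largest changes and GLK1, GLK2 and HY5 were named. Some steps within a course, such as those of FD1 and PGR5, were named after their values were seen.

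Replicates carry the numbers 1 to 3 in the labels, and nothing says that equal numbers share a batch. In 2 of 36 pairs of samples every same-numbered pair of arrays had deviations that correlated over 0.1 across genes (MCE at 7 and 12 HAS and at 12 and 24 HAS, lowest 0.21). Not every radicle marker is reported here, nor the sum over their list. The model fit was tested on simulated data with known changes. Precision is limited by having 3 arrays in a sample. Computations used R 4.3.3, limma 3.58.1, Python 3.11.15, numpy 2.4.6, pandas 2.3.3 and matplotlib 3.10.9.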

Additional observations from a re-analysis of the deposited data

Results flagged for a closer look

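The change from 3 to 24 HAS differed between the compartments, by the interaction term of the limma fit, for 4 of the 36 genes. The MCE change minus the RAD change was 1.12 for LHCB4.3, 1.64 for PSBS, 1.16 for PSBR and -1.22 for LHCB5, with limma adjusted p of 0.000896, 0.00214, 0.00624 and 0.0244. In LHCB4.3 all 3 MCE arrays at 24 HAS were above and all 3 RAD arrays were below those at 3 HAS. The compartments also differ in RNA isolation, and the MCE columns at 3 and 24 HAS in their number of decimals, which cannot be told apart from the compartment and from the time point. No explanation was tested.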

How the results depend on the processing

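Over the alternatives, 234 counts of called genes stayed within 1.5 times the reported count and 40 did not, and 600 values of single calls kept the call, 64 lost it and none changed sign. These tallies include outcomes fixed in advance. Dropping the fold minimum cannot lose a call, and leaving out LHCB2.3, a gene called in no comparison, cannot change a call or a count. By adjusted p alone, without a fold minimum, 9 genes passed from 3 to 24 HAS for the MCE and 17 for the RAD. The consecutive steps gave 6, 5 and 0 (MCE) and 10, 1 and 3 (RAD), the 4 comparisons between compartments 13, 12, 11 and 7 in time order, and the steps from dry seeds 16 (MCE) and 12 (RAD). With a 3-fold minimum they were 0 for the steps from 3 to 7 and 7 to 12 HAS in the MCE, 0 from 3 to 24 and from 3 to 7 HAS in the RAD, 1, 0, 0 and 0 between compartments, 3 and 1 from dry seeds, and 1 for the interaction. With a floor of 5 they were 0 for both RAD intervals and 3, 2 and 1 between compartments at 3, 7 and 12 HAS, since genes near 5 lose their difference there. The methods' t-test with Benjamini-Hochberg adjustment gave 0 from 3 to 7 and 7 to 12 HAS in the MCE and 0 from 3 to 7 HAS in the RAD. Quantile normalization applied again gave 2 from 3 to 7 HAS in the MCE and 2 from 3 to 24 HAS in the RAD. The cause of the other shifts was not tested.

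Leaving out each array in turn gave counts from 1 to 3 from 3 to 24 HAS in the RAD, 1 to 2 from 3 to 7 HAS in the RAD, 1 to 2 from 3 to 7 and from 7 to 12 HAS in the MCE, and 1 to 2 between compartments at 12 HAS. The arrays that moved them were RAD array 3 of 3 HAS (3) and of 24 HAS (2) for the first, RAD array 3 of 7 HAS (2), MCE array 3 of 3 HAS (2), MCE array 3 of 7 HAS (2) and RAD array 3 of 12 HAS (1) for the others. Centring each array moved the median of all genes by less than 0.1 in every comparison, and the median of the 36 genes kept its sign under both scalings except from 3 to 7 HAS in the RAD (-0.03, and 0.02 with centring). With the replicate number as a block, 4 genes were called in the MCE and 1 in the RAD from 3 to 24 HAS, 4 for the interaction, and the block changed no other count.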
